A study of Mus musculus with 4 samples.

Results

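The 38 genes described here encode the proximal signalling apparatus of the T cell antigen receptor: the receptor's signalling chains, the coreceptor and surface glycoproteins beside it, the first kinases, the scaffolds they phosphorylate, the enzymes these recruit, and the molecules that hold the signal back. They were picked as a list of gene symbols for their known roles, with earlier results of these data in view, and all 38 were listed in both deposited tables, of 23259 genes listed in at least 1 of them. RNA sequencing covered 4 libraries in 2 separate experiments, with 1 library per group. The first experiment set regulatory T cells (Treg) from the spleen of mice given water with 3% dextran sulfate sodium (DSS, a polymer that injures the colon lining) for 7 days against Treg of mice without DSS. Both Treg groups came from Balb/c mice whose Foxp3 gene carries a human CD2 reporter, and the cells were collected by that reporter. The second experiment set naive CD4 T cells (wild type, strain C57BL6) transduced with a Sox12 vector against the same kind of cells given a mock vector. Sox12 is a transcription factor of the SoxC group. How many mice went into a library, which promoter drove the vector and whether transduced cells were separated from the others are not stated in the labels. Since a group is 1 library, nothing below was tested or checked against replicates, so the values of both libraries are given and differences are described by their size.

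When the receptor binds an antigen, the kinase Lck phosphorylates tyrosine motifs on the CD3 and zeta chains, and the kinase Zap70 docks there. Zap70 then phosphorylates the scaffolds Lat and Lcp2, on which the phospholipase Plcg1, the exchange factor Vav1 and other enzymes gather to start calcium, Ras and NF-kB signalling. Phosphatases, ubiquitin ligases and lipid kinases act against these steps. In Treg, signals through this receptor are needed both for their development in the thymus and for their suppressive function.

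Foxp3 and Sox12 were read as a check of the labels, and markers of other cell types were read beside them. Foxp3, the lineage factor of Treg, had 84.9 FPKM (fragments scaled by transcript length and library size) in DSS Treg, against 88.2 FPKM in untreated Treg. In the transduced cells it had 127 FPKM with the Sox12 vector, against 20.9 FPKM with the mock vector. Sox12 had 829 FPKM with its vector and 1.56 FPKM with the mock vector. Basophil and mast cell markers summed to 28.5 FPKM over 5 listed genes in DSS Treg, against 7.49 FPKM in untreated Treg, and erythroid markers to 614 against 399 FPKM over 6 genes. Markers of NK and CD8 T cells summed to 21.4 against 24.7 FPKM over 2 listed genes, lower with DSS. Those of macrophages and neutrophils summed to 22.7 against 20.6 FPKM over 4 genes. B cell markers summed to 9.15 against 8.67 FPKM over 2 genes, and the 1 listed platelet marker had 1.40 against 0.878 FPKM. The 6 erythroid markers summed to 13.8 FPKM with the Sox12 vector, against 49.1 FPKM with the mock vector, mostly Hbb-b1 at 9.27 and 46.6 FPKM. In the transduced cells 6 of 6 markers of NK and CD8 T cells were higher with the Sox12 vector, beside 48.9% of all genes. They summed to 256 FPKM, against 93.8 FPKM with the mock vector, mostly Nkg7 at 215 and 80.0 FPKM. Of 7 macrophage and neutrophil markers and 5 basophil and mast cell markers there, 0 reached 1 FPKM in either library, and Csf1r, S100a8, S100a9, Prss34 and Ms4a2 were listed at 0 in both. The part of these other cell types in the results below was not tested. In bulk RNA, fewer cells of a type and less RNA per cell cannot be told apart.

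Nearly all of these genes stood in the upper part of the expressed genes. In DSS Treg the 38 members ranged between 11.9 FPKM (Pag1) and 473 FPKM (Cd3e), with a median of 93.4 FPKM, against a range of 14.3 to 468 FPKM and a median of 93.8 FPKM in untreated Treg. Over all genes past the filter on low values (a mean of 1 FPKM or more) the median was 12.9 FPKM in DSS Treg and 12.5 FPKM in untreated Treg. With the Sox12 vector the members ranged between 8.43 FPKM (Pag1) and 683 FPKM (Thy1) with a median of 66.6 FPKM, against 3.68 FPKM (Txk) to 795 FPKM (Thy1) and a median of 71.6 FPKM with the mock vector. The medians of all genes there were 13.1 and 12.8 FPKM. The summed level of the 38 genes was 5085 FPKM in DSS Treg and 5196 FPKM in untreated Treg, or 1.54% and 1.59% of all FPKM listed. In the transduced cells it was 3764 FPKM with the Sox12 vector and 4279 FPKM with the mock vector, or 0.912% and 1.00% of all FPKM listed. The tables were made separately, strain and cell type differed, and activation may have differed too, so levels are compared only within a table. The order of levels differed little between the 2 Treg libraries, where Cd3e, Cd3g, Dgka, Lck, Ptprc and Lat were the highest 6 members in that order in each. In the transduced cells Thy1 and Cd3g led in both libraries and Cd4, Cd3e, Lck and Ptprc filled the next 4 places in another order in each. The plot of levels by gene shows the pairs of values.

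**Figure D1:**
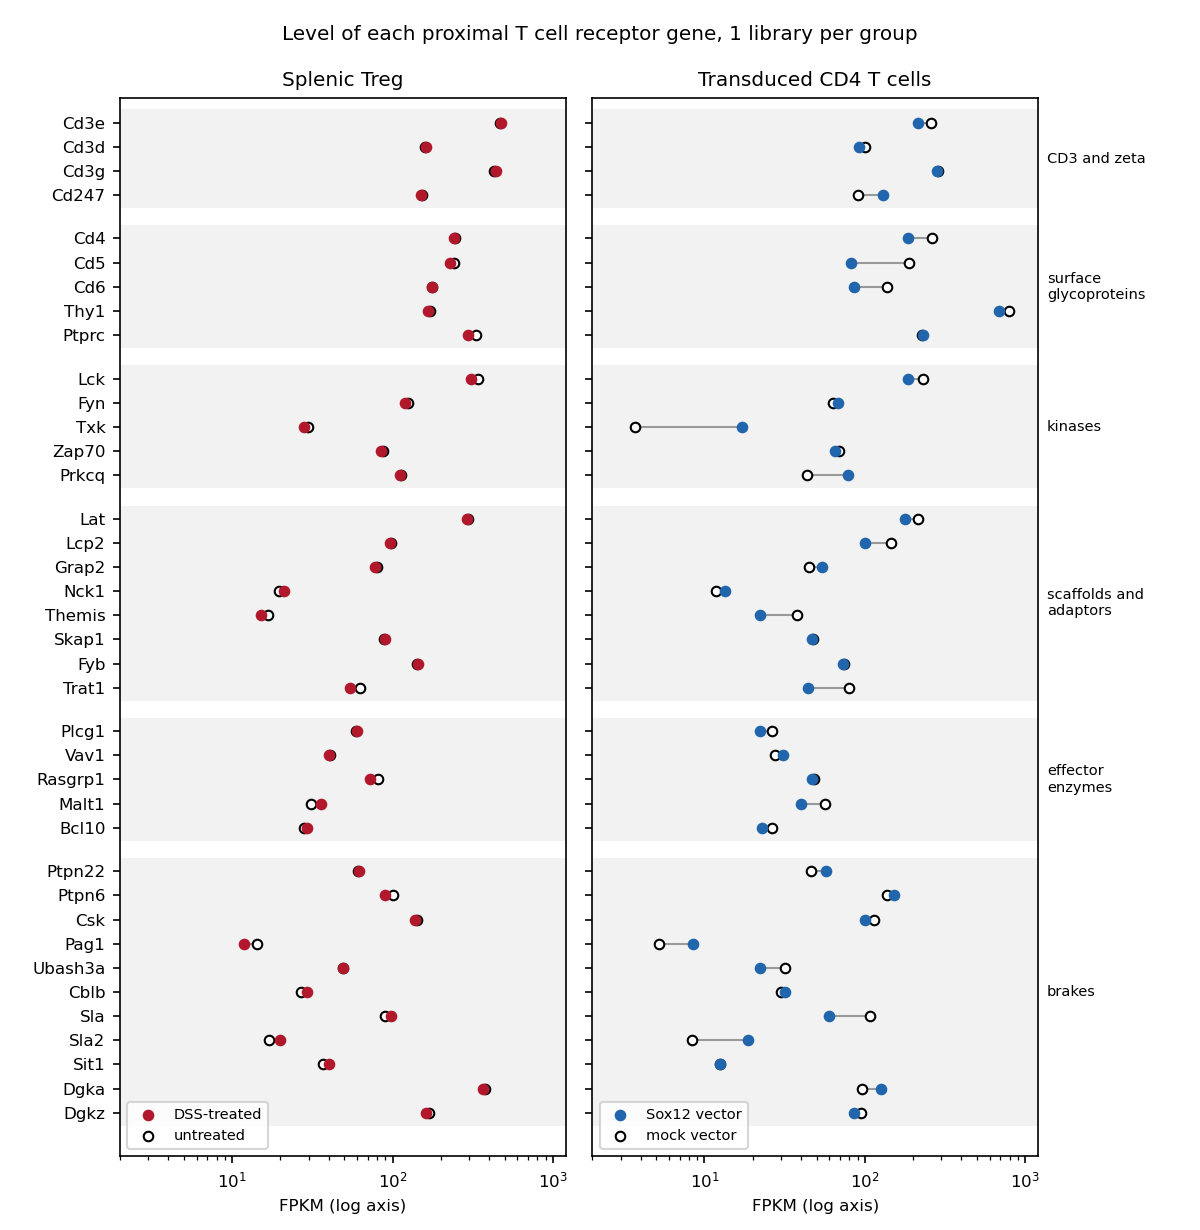
Level of each of the 38 genes in FPKM on a log axis, in splenic Treg (left; filled red, DSS-treated; open, untreated) and transduced CD4 T cells (right; filled blue, Sox12 vector; open, mock vector), 1 library per point and genes grouped by role. The Treg points nearly coincide, with ratios between 0.830 and 1.17, while Txk, Cd5 and Sla2 lie far apart in the transduced cells.

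None of the 38 genes differed by 1.5 times between the Treg libraries, beside 139 of 10545 genes past the filter. Between the vector libraries 9 of 38 did so, beside 1838 of 10822 genes. A change here is the difference of log2(FPKM + 1), taken as DSS-treated minus untreated in Treg and as Sox12 vector minus mock vector in the transduced cells, and sizes of 1 and 0.58 on that scale are called 2 times and 1.5 times. All 38 members passed the filter. In DSS Treg 0 of 38 members were at least 2 times different, beside 0.266% of 10545 genes past the filter, and 0 were at least 1.5 times different, beside 1.32% of all genes. The ratio of DSS-treated to untreated lay between 0.9 and 1.1 for 30 of 38 members. The extremes were Pag1, with a change of -0.25, and Sla2, with a change of 0.21. The middle 90% of all genes lay between -0.20 and 0.31, and of the members Pag1 and Trat1 fell below that range.

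Most members were slightly lower in DSS Treg under each scaling, and up to 7 of 38 turned sign with another scaling. In DSS Treg 24 members were lower and 14 higher, with a median change of -0.02, while 33.9% of all genes were lower and 66.1% higher, with a median of 0.05. With the median of all genes set to 0, 31 members were lower and 7 higher and the median change was -0.08, while all genes were split evenly by construction. Under the other scalings 29 or 30 members were lower. The median of the members stayed 0.07 to 0.08 below that of all genes in each of the 3 scalings.

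With the Sox12 vector Txk and Sla2 were at least 2 times higher and Cd5 at least 2 times lower. That is 2 of 38 members, beside 4.85% of 10822 genes past the filter, and 1 of 38, beside 1.91% of all genes. At least 1.5 times higher were 4 members (Txk, Sla2, Prkcq and Pag1), beside 10.1% of all genes, and at least 1.5 times lower were 5 members (Cd5, Trat1, Sla, Themis and Cd6), beside 6.88%. Just inside the 2 times rule was Sla2 at 1.07, and just outside it was Prkcq at 0.84. At the 1.5 times rule the nearest were Pag1 at 0.61 inside and Lcp2 at -0.52 outside. The median change of the members was -0.06, with 23 lower and 15 higher, beside -0.01 for all genes, of which 51.1% were lower and 48.9% higher. When the summed FPKM were made equal without the 20 highest genes, the members split evenly into 19 lower and 19 higher with a median of 0.00067, and 55.9% of all genes were then higher. The middle 90% of all genes lay between -0.68 and 0.98, and 31 of 38 members lay inside it.

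**Figure D2:**
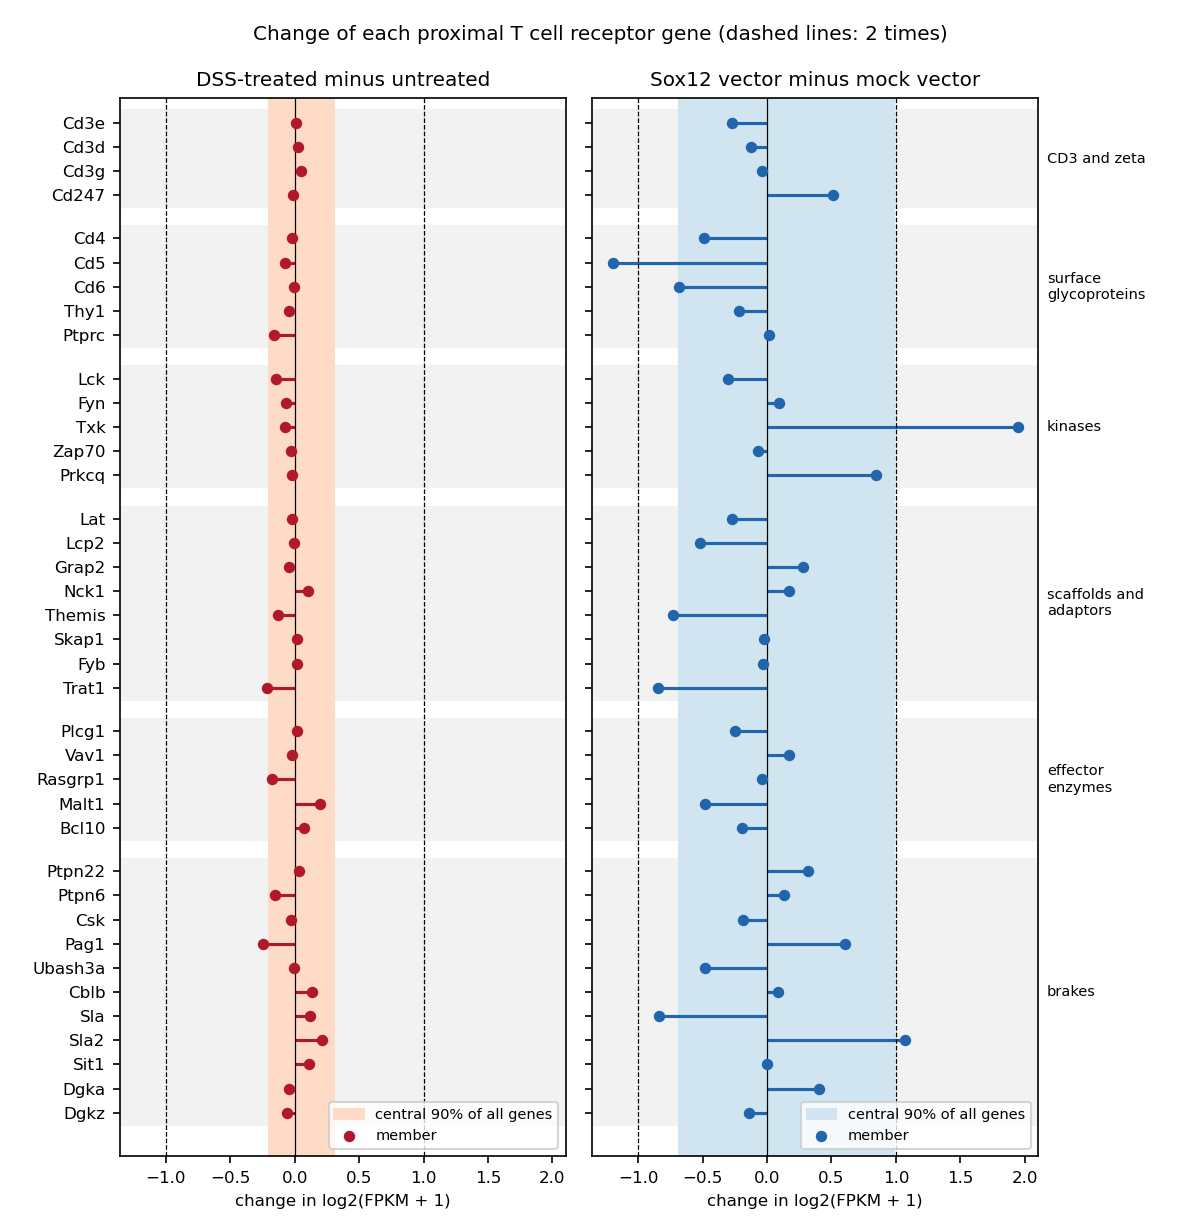
Change of each member in log2(FPKM + 1), DSS-treated minus untreated (left) and Sox12 minus mock vector (right), with the middle 90% of all genes past the filter shaded (-0.20 to 0.31 and -0.68 to 0.98) and dashed lines at 2 times. On the left all members lie between -0.25 and 0.21, and on the right Txk (1.95), Sla2 (1.07) and Cd5 (-1.20) pass the dashed lines.

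Because the table of the vector experiment lists low values too, the number of fragments behind a level could be estimated there. It came to about 44.7 fragments per FPKM and kilobase of transcript with the Sox12 vector and 42.9 with the mock vector. By this estimate the members rested on between 358 fragments (Txk, mock vector) and 47368 fragments (Ptprc, Sox12 vector). The 95% interval for counting error of the ratio, from an exact binomial interval, did not include 1 for 32 of 38 members. It covers counting error only, not the preparation of the library or the animals, and PCR copies are not independent molecules. The depth of the Treg libraries is unknown, since only genes with at least 1 library above 1 FPKM were listed.

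The receptor's own chains kept near equal levels in Treg, and in the transduced cells the zeta chain differed in direction from the CD3 chains. Cd3e, Cd3d and Cd3g encode the CD3 chains that pair up and carry the antigen-binding chains to the surface. Cd3e had 473 FPKM in DSS Treg and 468 FPKM in untreated Treg. Cd3g had 443 FPKM in DSS Treg and 428 FPKM in untreated Treg. Cd3d had 161 FPKM in DSS Treg and 158 FPKM in untreated Treg. These 3 were higher in DSS Treg by ratios of 1.01 to 1.04 and lower once the median of all genes was set to 0. Cd247, which encodes the zeta chain with the most tyrosine motifs of the complex, had 150.4 FPKM in DSS Treg and 152 FPKM in untreated Treg.

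In the transduced cells Cd3e had 214 FPKM with the Sox12 vector, against 259 FPKM with the mock vector. Cd3d had 91.5 FPKM with the Sox12 vector and 100.1 FPKM with the mock vector, and Cd3g had 280.5 and 288 FPKM in the same order. All 3 CD3 chains were thus lower with the Sox12 vector, although Cd3g was higher by a change of 0.02 when totals were made equal without the 20 highest genes. Cd247 had 129 FPKM with the Sox12 vector and 90.6 FPKM with the mock vector, a ratio of 1.43 (counting interval 1.39 to 1.47). Its share of the summed level of the 4 chains was 18.1% with the Sox12 vector and 12.3% with the mock vector, while the share of Cd3e was 30.0% and 35.2%. In the Treg libraries the share of Cd247 was 12.3% with DSS and 12.6% without. Cd247 shares 56.4% of its annotated exonic bases with Pou2f1 on the opposite strand (GENCODE vM21), and the labels do not say whether strand was used in the quantification. Pou2f1 had 5.71 FPKM with the Sox12 vector and 4.06 FPKM with the mock vector, lower than Cd247 but different in the same direction. The part of this overlap in the values of Cd247 was not tested.

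Among the surface glycoproteins, Cd5 and Cd6 were lower with the Sox12 vector and the phosphatase Ptprc was level. Cd5 and Cd6 are scavenger receptor family glycoproteins that associate with the receptor, and Cd5 restrains its signal. Cd5 had 81.7 FPKM with the Sox12 vector, against 189 FPKM with the mock vector, a change of -1.20 and a ratio of 0.433 (counting interval 0.421 to 0.445). It ranked 129 among 10822 genes, counted from the most lowered. Cd6 had 85.6 FPKM with the Sox12 vector and 138 FPKM with the mock vector, a ratio of 0.620. In Treg 0 of the 5 surface genes reached 1.5 times, beside 1.32% of all genes. Cd5 had 228 FPKM there with DSS and 241 FPKM without. Cd6 had 176 FPKM with DSS and 176 FPKM without.

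Cd4, the coreceptor that binds class II molecules and brings Lck to the receptor, had 185 FPKM with the Sox12 vector and 261 FPKM with the mock vector, a change of -0.49. Cd8a and Cd8b1, the chains of the other coreceptor, had 5.58 and 7.68 FPKM with the Sox12 vector, against 0.580 and 4.80 FPKM with the mock vector. In Treg Cd4 had 243 FPKM with DSS and 247 FPKM without. Thy1, a lipid-anchored glycoprotein of T cells, had 683 FPKM with the Sox12 vector and 795 FPKM with the mock vector. In Treg it had 166 FPKM with DSS and 170.3 FPKM without. Ptprc encodes CD45, the phosphatase that keeps Lck ready by removing its inhibitory phosphate. It had 229.8 FPKM with the Sox12 vector and 227 FPKM with the mock vector, a difference whose sign turned with 1 of the 3 scalings. Its level in Treg was 296 FPKM with DSS and 330.3 FPKM without (change -0.16). All 5 surface genes were lower in DSS Treg, beside 33.9% of all genes, and their summed level was 1109 FPKM with DSS and 1164 FPKM without. With the Sox12 vector it was 1265 FPKM, against 1610.5 FPKM with the mock vector.

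Of the kinases, Txk stood out in the vector experiment. Txk, also known as Rlk, is a kinase of the Tec family, which phosphorylates Plcg1. It had 17.0 FPKM with the Sox12 vector, against 3.68 FPKM with the mock vector, a change of 1.95 and a ratio of 4.63 (counting interval 4.12 to 5.19). It ranked 135 among 10822 genes, counted from the most raised, and was the lowest of the 38 members with the mock vector. Tec, another kinase of that family, had 5.70 FPKM with the Sox12 vector and 3.51 FPKM with the mock vector. In Treg, Txk had 28.2 FPKM with DSS and 29.6 FPKM without. NK cells also express Txk, and the NK and CD8 T cell markers, such as Klrk1 at 21.4 FPKM with the Sox12 vector and 6.35 FPKM with the mock vector, were higher in the same library. Whether Txk and these markers came from the same cells was not tested.

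Prkcq, which encodes protein kinase C theta and links the receptor to NF-kB, had 78.7 FPKM with the Sox12 vector and 43.4 FPKM with the mock vector, a ratio of 1.81 (counting interval 1.75 to 1.88). The Treg libraries had 112 FPKM with DSS and 113 FPKM without. The Src family kinase Lck was lower with DSS and with the Sox12 vector. It had 185 FPKM with the Sox12 vector and 229 FPKM with the mock vector. In Treg it had 308 FPKM with DSS and 341 FPKM without. Fyn, the other Src family kinase of the list, had 67.5 FPKM with the Sox12 vector and 63.1 FPKM with the mock vector. Its level in Treg was 119 FPKM with DSS and 125 FPKM without. Zap70 had 65.6 FPKM with the Sox12 vector and 69.1 FPKM with the mock vector. The Treg libraries had 85.4 FPKM with DSS and 87.01 FPKM without. All 5 kinases were lower in DSS Treg, by changes of -0.02 to -0.15, beside 33.9% of all genes, and their summed level was 652 FPKM with DSS and 696 FPKM without.

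The 8 scaffolds and adaptors were lower in 6 cases and higher in 2 with the Sox12 vector, beside 51.1% of all genes lower. The lowest by change was Trat1, a transmembrane adaptor that binds the receptor complex. It had 44.1 FPKM with the Sox12 vector and 79.8 FPKM with the mock vector (change -0.84, counting interval of the ratio 0.538 to 0.566). Trat1 was also the second lowest member in DSS Treg by change, with 54.0 FPKM with DSS and 62.7 FPKM without (change -0.21). Themis, an adaptor known for its part in thymocyte selection, had 22.2 FPKM with the Sox12 vector and 37.5 FPKM with the mock vector (ratio 0.591). In Treg it had 15.2 FPKM with DSS and 16.7 FPKM without.

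The core scaffold pair was lower with the Sox12 vector but within 1.5 times. Lat, the membrane scaffold, had 177 FPKM with the Sox12 vector and 214 FPKM with the mock vector. Lcp2, its cytosolic partner, had 101 FPKM with the Sox12 vector and 145 FPKM with the mock vector. Grap2, the adaptor that ties Lcp2 to Lat, differed in the other direction, with 54.2 FPKM with the Sox12 vector and 44.6 FPKM with the mock vector. In Treg all 3 were slightly lower with DSS. Lat had 292 FPKM with DSS and 297 FPKM without, Lcp2 96.7 and 97.3 FPKM, and Grap2 77.7 and 80.3 FPKM in the same order. Nck1, which connects the receptor to the actin cytoskeleton, was higher with DSS and with the Sox12 vector. It had 13.5 FPKM with the Sox12 vector and 11.9 FPKM with the mock vector. Its level in Treg was 21.1 FPKM with DSS and 19.6 FPKM without. Skap1 and Fyb, partners in integrin activation, were level in both experiments, with signs that turned with the scaling. Skap1 had 46.9 FPKM with the Sox12 vector and 47.8 FPKM with the mock vector. The Treg libraries had 90.2 FPKM with DSS and 88.9 FPKM without. Fyb had 72.8 FPKM with the Sox12 vector and 74.2 FPKM with the mock vector. In Treg it had 144 FPKM with DSS and 142 FPKM without.

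The 5 effector enzymes and Malt1 complex genes showed no difference of 1.5 times in either experiment. Of all genes 1.32% did so in DSS Treg. With the Sox12 vector 10.1% of all genes were that much higher and 6.88% lower. Malt1, a protease, and Bcl10, its binding partner, belong to the complex that starts NF-kB signalling. Malt1 had 40.1 FPKM with the Sox12 vector and 56.3 FPKM with the mock vector (change -0.48). In Treg it differed in the other direction, with 35.8 FPKM with DSS and 31.1 FPKM without (change 0.20). Bcl10 followed the same directions at a smaller size. It had 22.8 FPKM with the Sox12 vector and 26.2 FPKM with the mock vector. Its level in Treg was 29.5 FPKM with DSS and 28.0 FPKM without.

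Plcg1, which splits a membrane lipid into the messengers that raise calcium and activate Ras, had 22.1 FPKM with the Sox12 vector and 26.4 FPKM with the mock vector. The Treg libraries had 60.3 FPKM with DSS and 59.6 FPKM without. Rasgrp1, the Ras activator that one of these messengers recruits, was the lowest effector by change in DSS Treg. It had 71.9 FPKM with DSS and 81.4 FPKM without (change -0.18), while in the transduced cells it had 46.7 FPKM with the Sox12 vector and 48.1 FPKM with the mock vector. Vav1, which acts on the actin cytoskeleton, had 31.0 FPKM with the Sox12 vector and 27.5 FPKM with the mock vector. In Treg it had 39.9 FPKM with DSS and 40.6 FPKM without.

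The 11 genes grouped here as brakes did not move one way. Cd5, which also restrains the signal, was grouped with the surface glycoproteins and is not in these counts and sums. In the transduced cells 7 brakes were higher and 4 lower with the Sox12 vector, beside 48.9% of all genes higher. Their summed level was 675 FPKM, against 683 FPKM with the mock vector. In Treg 5 brakes were higher and 6 lower with DSS, beside 66.1% of all genes higher. Their sums were 1069 FPKM with DSS and 1084 FPKM without. Of the brakes, Sit1 turned sign with 1 of the 3 scalings in the vector experiment and Ptpn22 with 2 of them in Treg. The clearest contrast was within a pair of related adaptors, Sla and Sla2, which help the Cbl ubiquitin ligases to take the receptor off the surface. Sla2 had 18.7 FPKM with the Sox12 vector and 8.36 FPKM with the mock vector, a change of 1.07 and a ratio of 2.23 (counting interval 2.07 to 2.41). Sla had 59.9 FPKM with the Sox12 vector and 108 FPKM with the mock vector, a ratio of 0.554 (counting interval 0.536 to 0.573). Sla was thus 3.21 times as abundant as Sla2 with the Sox12 vector, against 12.9 times with the mock vector. In Treg both were higher with DSS, Sla at 98.1 FPKM with DSS and 90.3 FPKM without, and Sla2 at 19.97 FPKM with DSS and 17.1 FPKM without. Sla2 shares 23.6% of its annotated exonic bases with Rab5if on the opposite strand, which the tables list as 1110008F13Rik. That gene had 54.0 FPKM with the Sox12 vector and 55.6 FPKM with the mock vector, above Sla2 in each. The part of this overlap in the values of Sla2 was not tested.

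Pag1, the membrane anchor of the inhibitory kinase Csk, had 8.43 FPKM with the Sox12 vector and 5.20 FPKM with the mock vector, a ratio of 1.62. In Treg it was the most lowered member, with 11.9 FPKM with DSS and 14.3 FPKM without. Csk, which phosphorylates the inhibitory site of Lck, had 101 FPKM with the Sox12 vector and 114 FPKM with the mock vector. Its level in Treg was 139 FPKM with DSS and 142 FPKM without. Dgka and Dgkz, lipid kinases that remove diacylglycerol and so limit Rasgrp1, differed in direction with the Sox12 vector. Dgka had 126 FPKM with the Sox12 vector and 95.3 FPKM with the mock vector. Dgkz had 85.4 FPKM with the Sox12 vector and 94.1 FPKM with the mock vector. In Treg Dgka was the highest brake by level, with 367 FPKM with DSS and 378 FPKM without, and Dgkz had 162 FPKM with DSS and 168 FPKM without.

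The phosphatases Ptpn22 and Ptpn6, which dephosphorylate Src family kinases and their substrates, were both higher with the Sox12 vector within 1.5 times. Ptpn22 had 57.4 FPKM with the Sox12 vector and 45.8 FPKM with the mock vector, and Ptpn6 had 151 and 138 FPKM in the same order. In Treg Ptpn22 had 62.1 FPKM with DSS and 60.6 FPKM without, and Ptpn6 had 89.98 FPKM with DSS and 100.02 FPKM without. Ubash3a, a suppressor of receptor signalling, had 22.3 FPKM with the Sox12 vector and 31.6 FPKM with the mock vector. The Treg libraries had 49.2 FPKM with DSS and 49.4 FPKM without. The ubiquitin ligase Cblb had 31.9 FPKM with the Sox12 vector and 30.04 FPKM with the mock vector. In Treg it had 29.5 FPKM with DSS and 26.7 FPKM without. Sit1, an inhibitory transmembrane adaptor, had the same level of 12.5 FPKM in both vector libraries, and 40.1 FPKM with DSS and 37.0 FPKM without.

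The ratio of paired genes within a library is not moved by any scaling of that library. The rule here was 1.5 times on the ratio of FPKM itself, not on log2(FPKM + 1). The share of other gene pairs past this rule was not computed, so the counts describe these pairs only. Of 11 pairs, the ratio differed by at least 1.5 times between the libraries in 3 with the Sox12 vector and in 0 in DSS Treg. Those 3 were Sla to Sla2, Nck1 to Nck2 (1.45 with the Sox12 vector and 2.47 with the mock vector) and Csk to Pag1 (11.9 and 22.0 in the same order). Nck2, outside the members, had 9.26 FPKM with the Sox12 vector and 4.79 FPKM with the mock vector, while Nck1 was slightly higher. The order turned in 1 pair, Cd5 to Cd6, at 0.954 with the Sox12 vector and 1.37 with the mock vector. Dgka to Dgkz stood at 1.48 with the Sox12 vector and 1.01 with the mock vector, and at 2.27 with DSS and 2.25 without in Treg. Lck to Fyn stood at 2.74 with the Sox12 vector and 3.63 with the mock vector, and at 2.59 with DSS and 2.73 without. Cblb to its relative Cbl stood at 1.72 with the Sox12 vector and 1.73 with the mock vector. In Treg the ratio furthest from its untreated value was that of Skap1 to Skap2, at 11.2 with DSS and 14.4 without. Skap2, outside the members, had 8.07 FPKM with DSS and 6.17 FPKM without, while Skap1 was level.

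**Figure D3:**
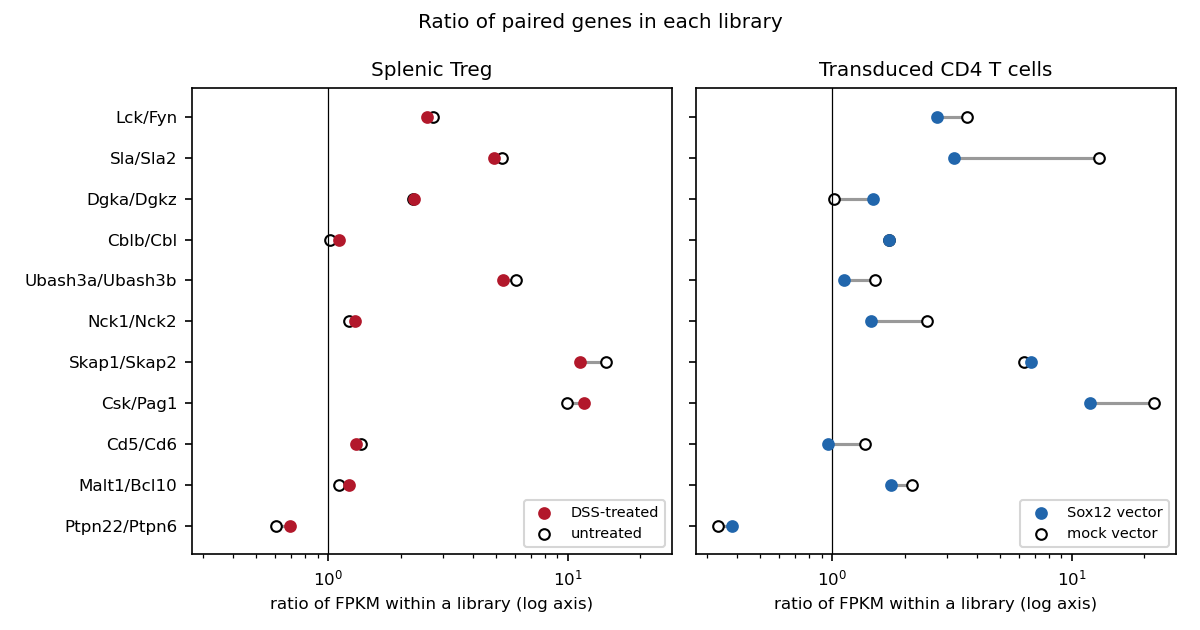
Ratio of the FPKM of 11 gene pairs within each library on a log axis, in splenic Treg (left; filled red, DSS-treated; open, untreated) and transduced CD4 T cells (right; filled blue, Sox12 vector; open, mock vector). Sla/Sla2, Nck1/Nck2 and Csk/Pag1 are lower with the Sox12 vector, while the Treg points differ by 0.776 to 1.18 times.

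The plot of change against mean level sets the members beside all genes. The median size of a member's change was 0.05 in DSS Treg, beside 0.08 for the 5135 genes with a mean of at least that of the lowest member. With the Sox12 vector it was 0.27, beside 0.20 for 7536 such genes. Only that lower bound was set, so levels were not matched to those of the members.

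**Figure D4:**
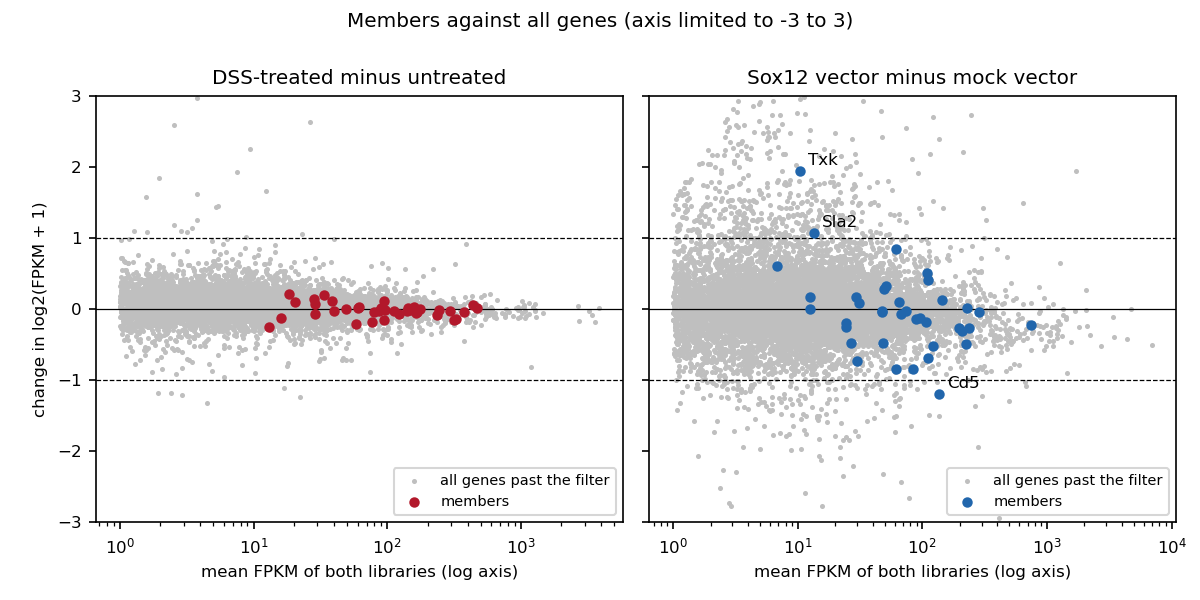
Change in log2(FPKM + 1) against the mean FPKM of both libraries (log axis) for all genes past the filter (grey) and the members (coloured), DSS-treated minus untreated (left) and Sox12 minus mock vector (right), with dashed lines at 2 times. The vertical axis leaves out 2 genes on the left and 58 on the right, and the named points are the 3 members at least 2 times different.

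The other genes of the pathway were counted in 4 lists. In DSS Treg 0 of the 69 listed genes were at least 1.5 times different, beside 1.32% of all genes. By any size, 66.1% of all genes were higher there and 33.9% lower. Kinases and adaptors outside the members had 24 of 25 genes listed, with 10 higher and 14 lower and a median of -0.02. The most abundant were Rac2, a GTPase of the cytoskeleton, at 363 FPKM with DSS and 379 FPKM without, and the adhesion receptor Cd2 at 255 and 259 FPKM. Genes of calcium and NFAT signalling had 8 higher and 7 lower (median 0.03), with Nfatc3, a transcription factor activated by calcium, at 68.2 FPKM with DSS and 63.2 FPKM without, and Nfatc1 at 61.0 and 57.6 FPKM. Of 11 Ras and ERK genes 10 were higher (median 0.06), beside 66.1% of all genes. The inhibitors outside the members had 9 higher and 10 lower (median -0.00421), with Rasal3, which acts against Ras, at 125 FPKM with DSS and 140.2 FPKM without, and the adaptor Dok2 at 121 and 129 FPKM.

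With the Sox12 vector 2 genes of these lists were at least 2 times higher, both among the 19 inhibitors. That is 2 of 70 genes listed, beside 4.85% of all genes, and 0 were at least 2 times lower, beside 1.91%. At least 1.5 times higher were 5 of the 70, beside 10.1% of all genes, and at least 1.5 times lower were 4, beside 6.88%. Ptpn12, a tyrosine phosphatase, had 17.1 FPKM with the Sox12 vector and 7.16 FPKM with the mock vector (change 1.15). Rasa3, a Ras GTPase-activating protein, had 40.7 FPKM with the Sox12 vector and 18.0 FPKM with the mock vector (change 1.14). The list as a whole had 10 higher and 9 lower, with a median of 0.0035. Of 15 calcium and NFAT genes 11 were lower, beside 51.1% of all genes, and their median was -0.33. The most abundant of them were Nfatc1, at 52.3 FPKM with the Sox12 vector and 55.1 FPKM with the mock vector, and Ppp3r1, a subunit of the phosphatase calcineurin, at 34.1 and 49.9 FPKM. The kinases and adaptors outside the members had 14 higher and 11 lower (median 0.05), with Cd2 at 361 FPKM with the Sox12 vector and 645 FPKM with the mock vector and Cdc42, a GTPase of the cytoskeleton, at 235 and 249.6 FPKM. Of 11 Ras and ERK genes 6 were higher and 5 lower (median 0.05).

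The sequences before the starts of Txk, Sla2 and Cd5, the 3 members at least 2 times different with the Sox12 vector, are shown because the vector carried a Sox factor. They are RefSeq windows of GRCm38.p6 from 250 bases before to 50 after an annotated start, read 5′ to 3′ on the gene's strand. Capitals mark ACAAAG or ACAATG on either strand, the letters that Sox factors are known to bind and that, for ACAAAG, Tcf and Lef factors bind too. Txk has 2 annotated starts, at chr5:72752728-72753027 and chr5:72736553-72736852. Sla2 lies at chr2:156887172-156887471 and Cd5 at chr19:10738925-10739224, all on the minus strand.
Txk upstream start: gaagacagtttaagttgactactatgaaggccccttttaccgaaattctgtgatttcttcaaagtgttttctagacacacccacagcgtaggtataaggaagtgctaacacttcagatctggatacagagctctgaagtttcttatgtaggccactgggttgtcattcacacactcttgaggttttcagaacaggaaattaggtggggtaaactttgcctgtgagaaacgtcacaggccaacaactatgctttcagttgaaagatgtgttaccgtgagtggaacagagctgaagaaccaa
Txk downstream start: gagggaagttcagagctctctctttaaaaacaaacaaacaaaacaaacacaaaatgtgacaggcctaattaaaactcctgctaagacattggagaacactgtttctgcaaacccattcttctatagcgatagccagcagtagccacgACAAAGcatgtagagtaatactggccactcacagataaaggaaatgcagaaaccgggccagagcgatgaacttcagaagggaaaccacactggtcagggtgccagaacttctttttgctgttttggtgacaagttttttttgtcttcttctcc
Sla2: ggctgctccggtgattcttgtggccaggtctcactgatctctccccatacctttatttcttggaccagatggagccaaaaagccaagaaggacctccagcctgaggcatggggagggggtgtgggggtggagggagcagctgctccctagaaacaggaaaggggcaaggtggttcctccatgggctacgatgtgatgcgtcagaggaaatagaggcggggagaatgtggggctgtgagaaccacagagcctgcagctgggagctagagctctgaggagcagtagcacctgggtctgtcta
Cd5: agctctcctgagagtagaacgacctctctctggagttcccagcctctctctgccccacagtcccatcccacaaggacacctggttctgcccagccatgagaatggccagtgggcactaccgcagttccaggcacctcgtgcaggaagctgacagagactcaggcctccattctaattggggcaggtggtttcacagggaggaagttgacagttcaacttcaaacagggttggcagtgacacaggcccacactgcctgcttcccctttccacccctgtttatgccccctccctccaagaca
The letters occurred 1 time, in the downstream window of Txk at 103 bases before the start, and in 0 of the other 3 windows. Of 32851 RefSeq windows of the same length 28.6% held them, beside 14 of 44 windows of the members (31.8%), for the 31 of 38 members matched to the table. Members with a match included Trat1 and Ubash3a, lower with the Sox12 vector, and Ptpn22 and Dgka, higher with it. These are matches of letters in short windows and say nothing of binding.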

How the data were processed

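Per the labels' protocols, total RNA was purified with a PureLink kit and made into strand-specific SureSelect libraries. Cufflinks and the build mm9 stand in the submitters' processing notes. For the aligner, the annotation and the use of strand, nothing is given in the sources used here. The deposited Treg table holds linear FPKM for both libraries and the authors' ratio of them as a fold change. In the deposited vector table the authors give log2(FPKM + 1) and its log2 difference, a scale read from the values, which were turned back to FPKM here.

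Rows whose symbol a spreadsheet had turned into a date were left out (16 in the Treg table, 25 in the vector table). Changes were computed over each whole table as differences of log2(FPKM + 1), which understates the change of low genes, keeping genes whose mean was 1 FPKM or more. A group is 1 library, so nothing was tested. Fragments per FPKM were estimated from low values of genes with a single transcript in GENCODE vM21 (17 and 16 genes at the most frequent value in the Sox12 and mock vector libraries) and so rest on few genes. A member's fragments used the median length of its coding transcripts. The computation of changes, size rules and scalings was tested on simulated data, with Python 3.11.15 and pandas 2.3.3. The search for fragments per FPKM was tested only on an idealised simulation with exactly known lengths, which does not vouch for the estimates above. The counting intervals were not tested.

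Every member was named, and of the lists of other pathway genes the members at least 2 times different or else the 2 with the highest mean, except in the Ras and ERK list, given by counts. Some genes and 1 gene pair are not reported here. The members and lists were chosen with earlier results of these data known. Other genes (such as Cbl) were named beside a member, and Tec, Cd8a, Cd8b1, Klrk1 and Nkg7 after their values were seen. Alternatives were other pseudocounts, filters and scalings. Sequences are from RefSeq on GRCm38.p6, another build than that of the deposited values, and were matched by symbol.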

Additional observations from a re-analysis of the deposited data

How the results depend on the processing

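The counts of members at least 2 and 1.5 times different and the median changes were recomputed with pseudocounts of 0.1 and 5, with no filter, with a minimum mean of 5 FPKM, and with 3 other scalings. With a pseudocount of 5 the number of members at least 2 times higher with the Sox12 vector was 1 in place of 2, because Sla2 stood at 0.83. Txk stood at 1.34 with that pseudocount and at 2.18 with a pseudocount of 0.1. The other counts kept within 1.5 times of their value under these alternatives, and Cd5 lay between -1.23 and -1.14. The median change of the members with the Sox12 vector turned to 0.00067 with totals made equal without the 20 highest genes, and lay between -0.09 and -0.05 in the other settings. Single members changed sign only under another scaling, up to 7 of 38 in DSS Treg and up to 4 of 38 with the Sox12 vector. All of these had a change within 0.1 of 0. No paired analysis was possible because each group has 1 library, and no library could be left out for the same reason. Depth limits the vector values little by the estimate above, but the spread between preparations or animals is unknown.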

Other observations

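Read side by side, 14 of the 38 members were lower with DSS and with the Sox12 vector and 5 were higher with both, 9 were higher with DSS and lower with the Sox12 vector, and 10 the other way round. Of the 9958 genes past the filter in both experiments 18.03% were lower and 32.7% higher in both. The remaining genes, about as large a share as the 9 and 10 members together, were in neither class. All of these counts move with the scaling. With the median of all genes set to 0, 31 members were lower in DSS Treg. With totals made equal without the 20 highest genes, 19 were lower with the Sox12 vector. Trat1 and Themis, both adaptors, were lower in both, and Sla2 was higher in both, while Pag1, Malt1 and Sla differed in direction between the experiments. The difference between the experiments was not tested.

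Of 6 T cell markers outside the members 4 were higher and 2 lower with the Sox12 vector, beside 48.9% of all genes higher. Their median change was 0.27. The lowest by change was Cd2, given above, at -0.84. The costimulatory receptor Cd28 had 71.4 FPKM with the Sox12 vector and 52.0 FPKM with the mock vector, the transcription factor Lef1 had 71.9 and 48.1 FPKM, and Bcl11b, a factor of T cell identity, had 22.2 and 16.8 FPKM in the same order. Tcf7 had 80.6 FPKM with the Sox12 vector and 83.98 FPKM with the mock vector. Il7r had 36.1 and 32.3 FPKM in the same order. Of 5 Treg markers 2 were higher and 3 lower with the Sox12 vector, beside the same 48.9% of all genes higher. Among them Ikzf2 had 18.7 FPKM with the Sox12 vector and 11.98 FPKM with the mock vector, and Tnfrsf18 had 183 and 329.8 FPKM. In DSS Treg 3 of the 6 T cell markers were higher and 3 lower, and 2 of the 5 Treg markers were higher and 3 lower. Of all genes 66.1% were higher there. The furthest from 0 were Il7r and Il2ra, both cytokine receptor genes. There Il7r had 116 FPKM with DSS and 86.96 FPKM without, and Il2ra had 67.2 FPKM with DSS and 82.0 FPKM without.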
